A study of Mus musculus with 6 samples.

Results

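*Rflnb* (refilin B) was followed together with its paralog *Rflna* (refilin A) and the filamin genes *Flna* and *Flnc* in mammary cells of *Glis2*+/+ and *Glis2*-/- mice. These 4 genes were taken by symbol from 54418 gene identifiers, and all 4 passed the filter on low counts, as did 21236 genes in all. *Rflnb* was selected on its difference between the genotypes in these same libraries, and the other members were added to it as its family and binding partners, so that the values of the members between genotypes are given as a description, without a test. Cells were sorted by FACS from mammary glands of 4-week-old C57BL/6 females, with 1 library per mouse and 3 mice per genotype. The mutant mice carry a germline loss of *Glis2*, which encodes a transcriptional repressor of the GLI-like zinc finger family, and the controls are wild type. No other allele or agent is named for either genotype. RNA was measured by RNA-seq as estimated counts per gene, given here as CPM, the counts scaled to library size after TMM normalization, and as TPM, which also take transcript length into account.

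Filamins are long, rod-like proteins that form dimers, bind actin filaments and cross-link them into networks, and they tether these networks to integrins and other membrane proteins. *Flna* encodes the widely expressed filamin A, and *Flnc* encodes filamin C, which is best known from striated muscle. Refilins are short proteins that bind filamins and turn them from cross-linkers of branched networks into bundlers of parallel actin filaments. In cultured epithelial cells, refilin B is known as a protein induced by TGF-β during EMT, when it organizes actin bundles over the nucleus. *Rflnb* spans chromosome 11 from 76019194 to 76027782 on the minus strand of GRCm38, with 3 exons in a transcript of 3512 bases. *Rflna* spans chromosome 5 from 125003221 to 125012547 on the plus strand, with 4 exons in its longest transcript. *Flna* spans chromosome X from 74223461 to 74249820 on the minus strand and *Flnc* chromosome 6 from 29433256 to 29461883 on the plus strand, with 47 and 48 exons in their longest transcripts. No other annotated gene overlaps any of the 4, so that reads shared with an overlapping gene do not enter their counts.

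The promoters of *Rflnb* and *Flna* are shown because the difference between genotypes lies in the first and because the second belongs to its most abundant partner. RefSeq (GRCm38.p6) had a promoter for 3 of the 4 members, and *Rflna* had none in the table used. Each line gives the 250 bases before the RefSeq start, 5′ to 3′ on the strand of the gene, at chr11:76027783-76028032 for *Rflnb* and chrX:74246535-74246784 for *Flna*. The *Rflnb* window ends at the annotated start of the gene, whereas the *Flna* window lies inside the span given above, because the longest *Flna* span begins at a start further upstream. The capitals mark GC boxes, the letters GGGCGG on either strand, a motif bound by SP1 and related factors.
Rflnb: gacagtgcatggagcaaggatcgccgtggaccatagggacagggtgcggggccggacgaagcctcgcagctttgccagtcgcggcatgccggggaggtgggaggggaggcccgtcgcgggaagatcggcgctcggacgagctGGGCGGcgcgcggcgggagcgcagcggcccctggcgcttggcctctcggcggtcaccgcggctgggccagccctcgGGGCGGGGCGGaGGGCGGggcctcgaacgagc
Flna: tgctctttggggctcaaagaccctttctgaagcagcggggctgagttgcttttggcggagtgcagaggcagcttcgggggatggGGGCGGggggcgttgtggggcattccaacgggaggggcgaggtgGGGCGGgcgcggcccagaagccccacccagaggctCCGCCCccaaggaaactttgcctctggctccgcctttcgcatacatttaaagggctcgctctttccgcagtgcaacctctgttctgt
The *Rflnb* stretch held 34 CpG dinucleotides and 76.0% G or C, against 15 CpG and 63.6% for *Flna* and a median of 6 CpG and 52.4% over 32851 promoters. It held 4 GC boxes, with overlapping matches counted, against 3 in *Flna*, and 32.7% of all promoters held at least 1. Neither the GLIS-type letters TGGGGGGT (1.36% of all promoters), nor the GLI-type letters GACCACCCA (0.225%), nor the CArG box of SRF (1.47%) occurred on either strand in these windows of *Rflnb*, *Flna* or *Flnc*. The GC box was chosen after the sequences were seen, and these matches describe letters, not binding.

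Total counts lay between 24996524 and 31393917 per library. *Glis2* itself was not absent from the *Glis2*-/- libraries, at 10.1 to 17.0 CPM against 19.6 to 23.2 CPM in *Glis2*+/+, so that the genotype is taken from the labels. Epithelial markers such as *Krt8*, *Krt14* and *Epcam* were present in every library, and the study describes the sorted cells as mammary epithelial cells. The antibodies were against CD24, CD49f, CD31, CD45 and TER-119, and which gate was sequenced is not given in the sources used here. Markers of other cells were present too, and the endothelial sum of 8 genes was lowest in replicate 2 of each genotype, at 135 CPM in *Glis2*+/+ and 212 CPM in *Glis2*-/-, against 479 to 774 CPM in the other libraries. In bulk libraries, fewer cells of a type and less RNA per cell cannot be told apart. With edgeR's quasi-likelihood test, 0 genes passed an adjusted p of at most 0.05 and a log2 fold change of 0.58 or more in either direction (0% of those tested), 5.32% had an unadjusted p under 0.05, and DESeq2 with apeglm shrinkage called 0.19% of its 23738 genes.

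*Rflnb* was higher in each *Glis2*-/- library than in each *Glis2*+/+ library. It stood at 131, 90.5 and 83.3 CPM in *Glis2*+/+ replicates 1, 2 and 3 and at 200.1, 157 and 208 CPM in *Glis2*-/- replicates 1, 2 and 3. The lowest mutant library, replicate 2, thus lay above the highest control, replicate 1, and each value rested on 2170 to 6518 counts. Control mice averaged 101.7 ± 25.9 CPM (SD, n = 3) and mutant mice 188 ± 27.6 CPM (SD, n = 3), a ratio of 1.85. The log2 fold change was 0.89 with a standard error of 0.19, and without 1 mouse it ranged from 0.76 to 1.10, highest without *Glis2*+/+ replicate 1. It was this contrast that selected the gene. *Rflnb* was the only one of the 4 members whose genotypes did not overlap with the mutant above, as 6.23% of all genes tested did. On the TPM scale the controls had 8.34, 6.22 and 6.16 TPM and the mutants 13.4, 8.89 and 12.2 TPM. The genotypes were also apart on this scale, but mutant replicate 2 and control replicate 1 came close to each other.

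*Rflna*, the other refilin, was near the lower end of what was measured. It had 44, 40 and 70 counts in the *Glis2*+/+ and 27, 49 and 30 counts in the *Glis2*-/- libraries, or 1.43, 1.40 and 2.69 CPM against 1.08, 1.64 and 0.959 CPM. *Glis2*+/+ replicate 3 stood above the other 5 libraries, which overlapped between genotypes. The log2 fold change was −0.58 (standard error 0.50), little more than its error, and it was −0.21 without *Glis2*+/+ replicate 3 and −1.02 without both replicate 2 libraries. Per length, *Rflnb* exceeded *Rflna* in every library, by a TPM ratio of 13.9 to 40.4 in *Glis2*+/+ and 42.1 to 95.3 in *Glis2*-/- cells. *Rflna* ranked between 14470 and 17546 by TPM among the genes tested, and *Rflnb* between 1600 and 4547.

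**Figure D1:**
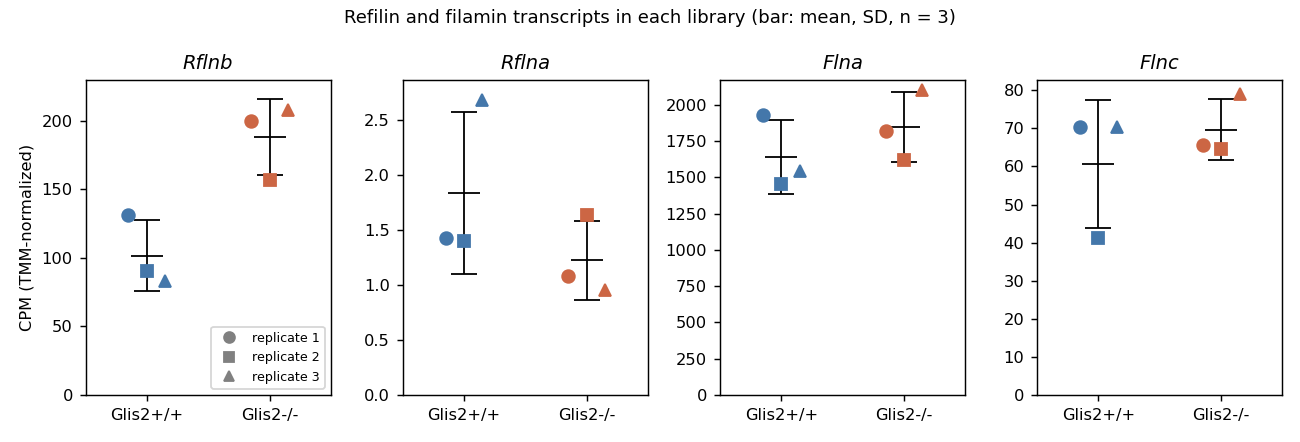
CPM of each member (vertical axis, starting at 0, own scale per gene) in the 3 *Glis2*+/+ and 3 *Glis2*-/- libraries, with the mean and SD as bars and the replicate number as the symbol. The *Rflnb* libraries are apart, from 83.3 to 131 against 157 to 208 CPM, while those of *Rflna*, *Flna* and *Flnc* overlap.

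*Flna* was the most abundant member and overlapped between genotypes. The *Glis2*+/+ libraries had 1928, 1454 and 1542 CPM and the *Glis2*-/- libraries 1818, 1623 and 2103 CPM. The highest and the lowest library differed by a ratio of 1.45, the smallest such ratio of the 4 members, with replicate 2 the lowest of each genotype. Its log2 fold change was 0.17 (standard error 0.13), and it ranged from 0.05 to 0.29 when single mice were left out, lowest without *Glis2*-/- replicate 3 and highest without *Glis2*+/+ replicate 1. By TPM it ranked between 205 and 362 among the 21236 genes tested, with 58.3 ± 5.88 TPM (SD, n = 3) in *Glis2*+/+ and 59.6 ± 10.2 TPM (SD, n = 3) in *Glis2*-/- cells. These TPM values are small because Gm23935, annotated as a microRNA gene, held 83.0% to 85.7% of the TPM of every library. Its share was 85.5% to 85.7% in *Glis2*+/+ replicate 1 and *Glis2*-/- replicates 2 and 3. It was 83.0% to 83.6% in the others, so that the TPM left for other genes differed between libraries.

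*Flnc* overlapped between genotypes and ranked between 6329 and 9387 by TPM among the 21236 genes tested. It had 70.3, 41.3 and 70.5 CPM in the *Glis2*+/+ and 65.5, 64.5 and 79.0 CPM in the *Glis2*-/- libraries. Only *Glis2*+/+ replicate 2 stood apart, below the other 5, and without that library the log2 fold change moved from 0.20 (standard error 0.20) to −0.01. Per length, *Flna* exceeded *Flnc* by a ratio of 14.9 to 29.5 in *Glis2*+/+ and 17.4 to 22.3 in *Glis2*-/- libraries. *Flnc* is a muscle gene by its best known role. Skeletal muscle markers, summed over 10 genes of which 9 were lower in *Glis2*-/- cells, had 29.9 to 143 CPM in *Glis2*+/+ and 41.0 to 56.5 CPM in *Glis2*-/- libraries. Their lowest library was *Glis2*+/+ replicate 2, as for *Flnc*, but this library was also the lowest for the fibroblast, endothelial and adipocyte sums. None of the 10 muscle markers was at 0 in any library. The part of muscle RNA in *Flnc* was not tested.

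By length-scaled level, the order of the members was *Flna*, *Rflnb*, *Flnc* and *Rflna* in each of the 6 libraries, with no overlap between neighbours in this order. *Rflnb* reached 6.91 ± 1.24 TPM (SD, n = 3) in *Glis2*+/+ and 11.5 ± 2.35 TPM (SD, n = 3) in *Glis2*-/- cells. *Flnc* reached 2.89 ± 1.12 TPM (SD, n = 3) and 3.03 ± 0.204 TPM (SD, n = 3) in the same order. *Rflna* reached 0.290 ± 0.133 TPM (SD, n = 3) and 0.168 ± 0.0416 TPM (SD, n = 3).

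Since refilins act on filamins, *Rflnb* was also set against *Flna* in the same library. The TPM ratio of *Rflnb* to *Flna* was 0.131, 0.120 and 0.104 in the *Glis2*+/+ and 0.220, 0.182 and 0.177 in the *Glis2*-/- libraries. All mutant libraries lay above all controls, and the gap between the genotypes, from 0.131 to 0.177, was wider than the range within either. The mean ratio was 0.118 ± 0.0137 (SD, n = 3) in *Glis2*+/+ and 0.193 ± 0.0236 (SD, n = 3) in *Glis2*-/- cells, 1.63 times as high. This ratio holds the values that selected *Rflnb* and was not tested.

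Basal cells, the contractile outer layer of the duct, are rich in actin-binding proteins, and their markers moved in the same direction as *Rflnb*. All 10 basal markers were higher on average in *Glis2*-/- cells, with a median log2 fold change of 0.38, against 0.01 over all genes tested. Of these, *Cnn1* and *Oxtr* had libraries that did not overlap, with the mutant above as in 6.23% of all genes tested, and none was at 0 in any library. None passed the thresholds, with 0 calls by edgeR and 0 by DESeq2, and 5 had an edgeR unadjusted p under 0.05, against 5.32% of all genes tested. Their summed level was 5009 to 6489 CPM in *Glis2*+/+ and 6637 to 8046 CPM in *Glis2*-/- libraries, without overlap, and the 6 libraries stood in the same order as for *Rflnb*. Per 1000 CPM of these markers, *Rflnb* stood at 20.2, 15.4 and 16.6 CPM in the *Glis2*+/+ and at 28.8, 23.6 and 25.9 CPM in the *Glis2*-/- libraries. The genotypes were still apart on this scale, with a difference of 0.59 (standard error 0.14) in log2 units in place of 0.89. *Flna* per 1000 CPM of basal markers overlapped, at 247 to 308 CPM in *Glis2*+/+ and 244 to 261 CPM in *Glis2*-/- libraries, and its difference turned to −0.15 (standard error 0.10) in log2 units. The scale was chosen after the values were seen, *Acta2* and *Myh11* held 51.1% to 57.6% of the marker sum, and the part of basal cells in the *Rflnb* difference was not tested.

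**Figure D2:**
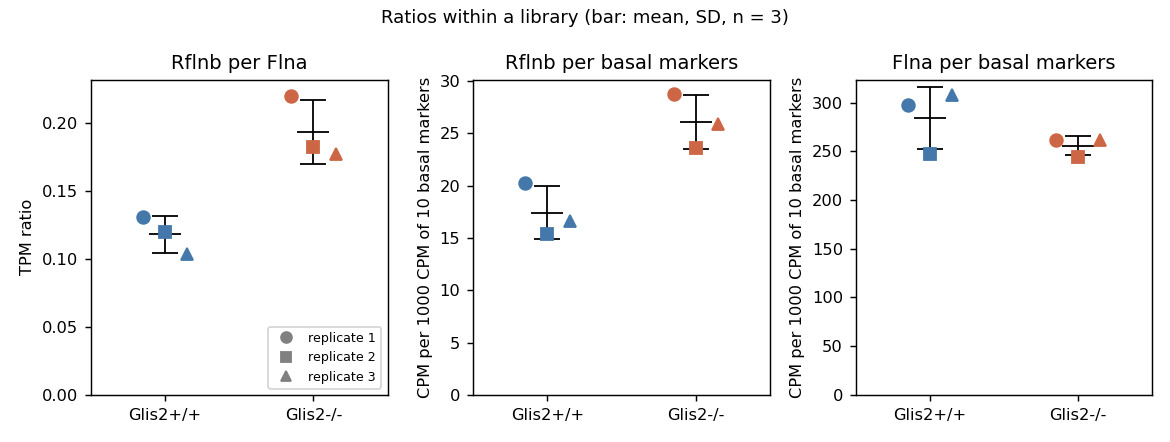
Ratios within each library (vertical axes, starting at 0) for the 3 *Glis2*+/+ and 3 *Glis2*-/- libraries, with mean and SD bars: *Rflnb* over *Flna* in TPM, and *Rflnb* and *Flna* in CPM per 1000 CPM of 10 summed basal markers. Both *Rflnb* ratios are apart between genotypes, from 0.104 to 0.131 against 0.177 to 0.220 for the first, and the *Flna* ratio overlaps.

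Of the other cell type markers, leukocyte markers were low but apart as well, with 17.5 to 32.4 CPM over 8 genes in *Glis2*+/+ and 36.1 to 71.1 CPM in *Glis2*-/- libraries, where 7 of the 8 were higher, against 51.6% of all genes tested, and 4 did not overlap with the mutant above, against 6.23%. Their median log2 fold change was 1.21, and at an unadjusted p under 0.05, a level that 5.32% of all genes tested reached, 4 were higher and 1, *Adgre1*, was lower at −1.56. The order of the leukocyte sums was that of *Rflnb* except for *Glis2*+/+ replicates 2 and 3. The luminal sum of 10 markers (4152 to 6949 CPM against 4086 to 7236 CPM) overlapped. So did the sums of 8 fibroblast markers (2335 to 7772 CPM against 2631 to 5952 CPM) and of 8 endothelial markers (135 to 733 CPM against 212 to 774 CPM). The 6 pericyte markers (337 to 599 CPM against 321 to 460 CPM) and the 5 adipocyte markers that passed the filter (52.3 to 309 CPM against 94.8 to 263 CPM) overlapped too. All 6 pericyte markers were lower on average in *Glis2*-/- cells, with a median log2 fold change of −0.41 and 2 at an unadjusted p under 0.05, against 5.32% of all genes tested. Of these, *Notch3* did not overlap, at 216 to 234 CPM in *Glis2*+/+ and 149 to 202 CPM in *Glis2*-/- libraries. Such a separation with the mutant below was seen in 5.50% of all genes tested. *Fabp4*, at 46.3 to 294 CPM, made up most of the adipocyte sum. Of the 5 adipocyte markers, 4 were lower on average in *Glis2*-/- cells, and 1, *Plin1* (log2 fold change −1.37), had an edgeR unadjusted p under 0.05. *Adipoq*, at 0 to 4.07 CPM, did not overlap either, with a log2 fold change of −2.16. Of the markers that passed the filter, *Adipoq*, *Cidec* and *Lep*, 3 adipocyte genes, were at 0 counts in at least 1 library. Without both replicate 2 libraries, left out after the data were seen, the log2 fold change of *Rflnb* was 0.92 (standard error 0.21), and the endothelial sums of the remaining libraries still lay between 479 and 774 CPM. CD45, CD31 and TER-119 mark leukocytes, endothelial cells and erythroid cells, which a gate on cells negative for these markers would remove. The part of leukocytes or other cells in the *Rflnb* difference was not tested.

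**Figure D3:**
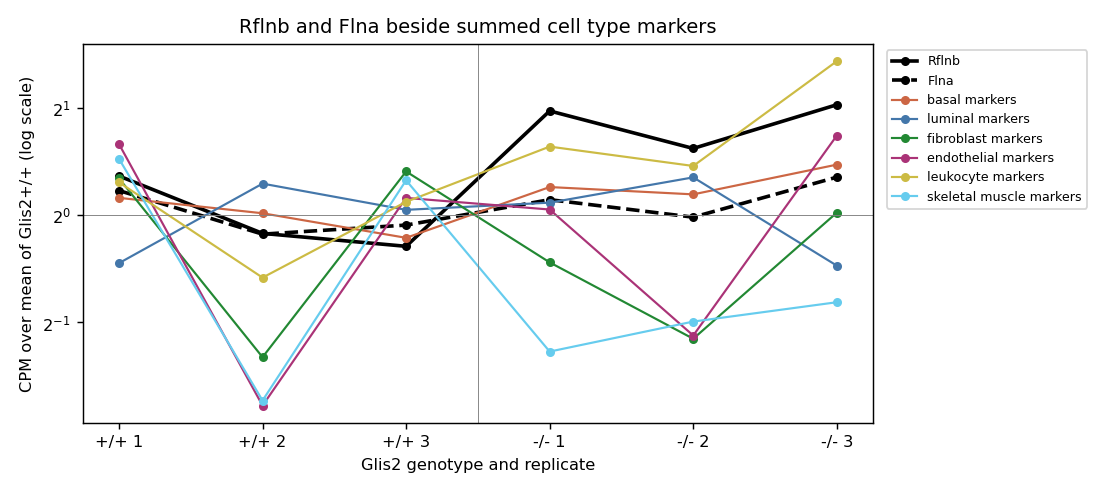
CPM of *Rflnb*, *Flna* and 6 summed marker lists in each library, divided by the mean of the 3 *Glis2*+/+ libraries (vertical axis, log scale). *Rflnb* and the basal and leukocyte sums are above the *Glis2*+/+ libraries in all 3 *Glis2*-/- libraries, and the endothelial sum dips in replicate 2 of both genotypes.

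Over the 6 libraries, the log2 CPM of *Rflnb* was most like that of *Myl6* among 17101 genes with a mean of at least 1 CPM. *Myl6* encodes the essential light chain of nonmuscle and smooth muscle myosin, and it stood at 349, 309 and 307 CPM in the *Glis2*+/+ and 400.4, 367 and 414 CPM in the *Glis2*-/- libraries. Its 6 libraries stood in the same order as those of *Rflnb*, over a narrower range. The next genes were *Cttnbp2*, *Abca1*, *Tmem29* and *Lck*, of which *Abca1* encodes a cholesterol exporter and *Lck* a kinase of T cells. For *Flna* the most alike genes were *Dpysl3*, *Lama1*, *Rnf34*, *Clip3* and *Sobp*, of which *Lama1* encodes a laminin chain of basement membranes. Pearson correlations of 0.991 to 0.996 for *Rflnb* and 0.991 to 0.994 for *Flna* describe the best of many genes on few libraries, which share depth and genotype. Within 100 kb of the start of *Rflnb*, *Rph3al* was the only other gene start that passed the filter, and it did not differ by more than its error, with −0.14 ± 0.29 (SE) in log2 units and an edgeR adjusted p of 0.977. *1700016K19Rik*, the other gene starting there, had 5 to 37 counts and did not pass.

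The other genes around refilins and filamins were taken from 5 lists: proteins that bind filamins, other actin cross-linkers and bundlers, genes of actin branching and nucleation, the LINC complex and lamina that hold perinuclear actin at the nucleus, and TGF-β response genes. With edgeR, 0 of the 73 genes of these lists that were tested passed the thresholds in either direction. At an unadjusted p under 0.05, 7 were higher and 2 lower in *Glis2*-/- cells, against 5.32% of all genes tested in either direction. DESeq2 called 1 gene, *Ltbp2*, against 0.19% of its genes. This gene was known to differ in these libraries when the lists were written, and it is also among the 7 higher ones. Over all genes tested, 51.6% were higher in *Glis2*-/- cells and the median log2 fold change was 0.01.

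Filamin-binding partners were spread evenly around 0. Of 19 tested, 9 were higher and 10 lower in *Glis2*-/- cells, with a median log2 fold change of −0.02. Only 1 gene had an unadjusted p under 0.05, against 5.32% of all genes tested. That gene was *Fblim1*, which encodes migfilin, the adaptor that joins filamin to integrin adhesions. It had 67.4, 48.3 and 44.1 CPM in the *Glis2*+/+ and 64.7, 68.3 and 78.4 CPM in the *Glis2*-/- libraries, which overlapped through *Glis2*+/+ replicate 1, and the difference came to 0.40 ± 0.17 (SE) in log2 units with an edgeR adjusted p of 0.906. *Itgb4*, a subunit of the hemidesmosome integrin, had 198, 215 and 235 CPM in *Glis2*+/+ and 190, 190 and 189 CPM in *Glis2*-/- libraries and was the only partner without overlap, among the 5.50% of all genes tested that were lower in this way. *Hspb8*, a small heat shock protein that helps to clear damaged filamin, differed by 0.42 ± 0.22 (SE) in log2 units and *Ldb3*, a Z-disc protein, by −0.72 ± 0.41 (SE), each with overlap.

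Among the 20 actin cross-linkers and bundlers, 14 were higher and 6 lower in *Glis2*-/- cells, with a median log2 fold change of 0.09. The genotypes did not overlap, with the mutant above, for 4 of them, *Tagln*, *Palld*, *Lcp1* and *Actn4*, and for none with the mutant below, where 6.23% and 5.50% of all genes tested did so. An unadjusted p under 0.05 was seen for 3, against 5.32% of all genes tested. *Tagln*, which encodes the smooth muscle actin bundler transgelin, had 264, 228 and 256 CPM in the *Glis2*+/+ and 357, 348 and 419 CPM in the *Glis2*-/- libraries. The difference came to 0.59 ± 0.11 (SE) in log2 units, and its adjusted p was 0.849 in edgeR but 0.0267 in DESeq2, where its shrunken fold change of 0.50 fell short of the threshold. The basal markers, which include the smooth muscle genes *Acta2* (log2 fold change 0.41) and *Cnn1* (0.60), were higher in the same libraries, as given above, and their part in the *Tagln* difference was not tested. *Palld*, which encodes palladin, a scaffold of actin bundles, had 278, 223 and 206 CPM in the *Glis2*+/+ and 317, 296 and 307 CPM in the *Glis2*-/- libraries (adjusted p = 0.906 from edgeR). *Lcp1*, which encodes the plastin of leukocytes, had 46.7, 41.6 and 49.9 CPM against 56.5, 56.2 and 59.6 CPM, and the leukocyte markers above were also higher in these mutant libraries. *Actn4*, which encodes a nonmuscle α-actinin, differed by 0.09 ± 0.08 (SE) in log2 units, and *Pls3*, another plastin, by 0.24 ± 0.16 (SE) with overlap.

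Genes of actin branching and nucleation were balanced as well, with 8 higher and 8 lower of 16 and a median log2 fold change of −0.00171. *Diaph3*, which encodes a formin that elongates unbranched filaments, had 64.3, 94.7 and 52.1 CPM in the *Glis2*+/+ and 41.3, 37.3 and 45.1 CPM in the *Glis2*-/- libraries. All mutant libraries lay below all controls, as in 5.50% of all genes tested. The difference came to −0.77 ± 0.21 (SE) in log2 units with an edgeR adjusted p of 0.906. The Arp2/3 genes *Arpc1b* and *Actr3* and the branch stabilizer *Cttn* overlapped, with log2 fold changes of −0.19, 0.17 and 0.14. *Arpc2*, another Arp2/3 subunit, differed by −0.06 ± 0.09 (SE) in log2 units without overlap.

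Of 8 genes of the LINC complex and lamina, 2 were higher and 6 lower in *Glis2*-/- cells, with a median log2 fold change of −0.10. Of these, 1 had an unadjusted p under 0.05, against 5.32% of all genes tested. *Syne2*, which encodes nesprin 2, the actin-binding link on the outer nuclear membrane, had 609, 652 and 616 CPM in the *Glis2*+/+ and 528, 544 and 566 CPM in the *Glis2*-/- libraries. The genotypes did not overlap, with the mutant below as in 5.50% of all genes tested. The difference was small, with −0.20 ± 0.08 (SE) in log2 units and an edgeR adjusted p of 0.906. *Sun2*, which encodes its partner on the inner membrane, lay the other way, with 171, 176 and 147 CPM in *Glis2*+/+ and 178, 201 and 191 CPM in *Glis2*-/- libraries. *Lmna* and *Sun1* overlapped, with log2 fold changes of −0.11 and −0.13.

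Of 10 TGF-β response genes, 8 were higher and 2 lower in *Glis2*-/- cells, with a median log2 fold change of 0.235. All 10 basal markers were higher on average in the same mutant libraries, with a median of 0.38, and their part in these differences was not tested. An unadjusted p under 0.05 was seen for 3 of them, *Ltbp2*, *Smad7* and *Ccn2*, against 5.32% of all genes tested. *Ltbp2*, which encodes a matrix protein of the latent TGF-β binding family, had 128, 193 and 150.1 CPM in the *Glis2*+/+ and 244, 243 and 282 CPM in the *Glis2*-/- libraries. The difference came to 0.70 ± 0.15 (SE) in log2 units, and its adjusted p was 0.849 in edgeR but 0.0383 in DESeq2, and it is among the genes that were known to differ in these libraries when the list was written. *Smad7*, the feedback inhibitor of the pathway, had 78.2, 78.5 and 76.7 CPM in *Glis2*+/+ and 83.6, 99.4 and 93.3 CPM in *Glis2*-/- libraries, with a log2 fold change of 0.24 (standard error 0.10). *Ccn2*, a direct target that encodes a matrix protein, did not separate the genotypes, at 0.56 ± 0.24 (SE) in log2 units. *Tgfb1i1*, a focal adhesion protein induced by TGF-β, had 0.36 (standard error 0.18) with overlap.

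**Figure D4:**
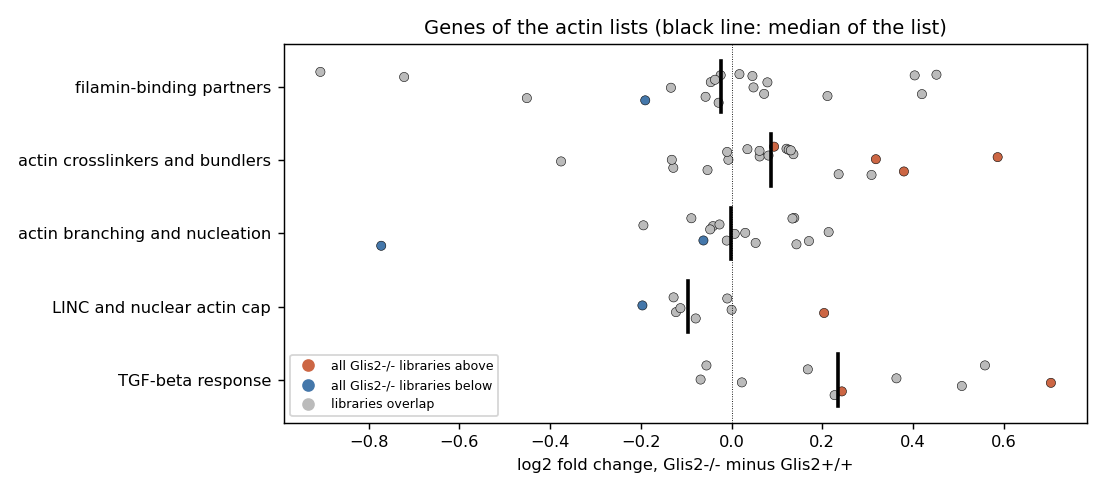
Log2 fold change, *Glis2*-/- minus *Glis2*+/+, of each tested gene of the 5 lists, with the median of the list as a black line and colour for genes whose libraries do not overlap. The medians lie between −0.10 and 0.235, and no gene passed the edgeR thresholds.

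**Figure D5:**
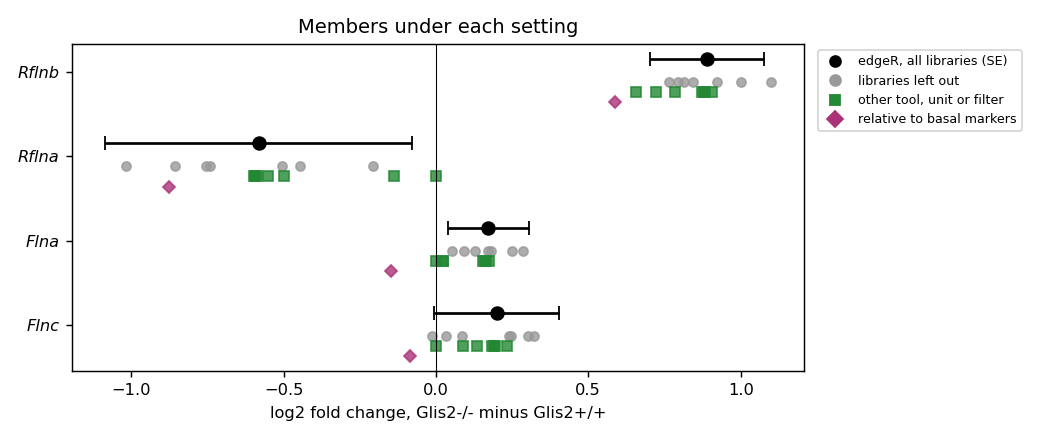
Log2 fold change of each member, *Glis2*-/- minus *Glis2*+/+, in the edgeR fit on all libraries (black, with standard error) and under each alternative setting. *Rflnb*, which was selected on this contrast, is above 0 in all of them, from 0.59 to 1.10, and *Flna* and *Flnc* lie on both sides of 0.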

How the data were processed

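RNA was extracted from sorted mammary cells of 3 *Glis2*+/+ and 3 *Glis2*-/- mice, and libraries were made with a stranded total RNA kit for picogram inputs. The authors quantified reads with Salmon 1.2.1 on an Ensembl transcriptome of mm10 with the genome as decoy, and the deposited estimated counts per gene, whole numbers without scaling, were assembled with tximport. The authors also deposited the log2 of TPM plus 1. As estimates, both depend on how reads were shared between transcripts. Symbols were matched for 54096 of 54418 identifiers with a GRCm38 annotation of another release.

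In R 4.3.3, counts were filtered with filterByExpr, scaled by TMM and compared with the quasi-likelihood test of edgeR 4.0.16, with Benjamini-Hochberg adjustment over all genes. Standard errors of log2 fold changes were derived from the F statistic of the edgeR fit they belong to. On the scale relative to basal markers, they come from the variance of the log2 ratios between mice. TPM ratios used the deposited log2 values turned back. Alternatives were DESeq2 1.42.0 with apeglm 1.24.0, limma 3.58.1 on log2 TPM, other filters and size factors, a replicate block, and leaving out mice. The scale relative to basal markers, leaving out both replicate 2 libraries, and the GC box were added after the data were seen. Proteins of the members were not analysed here. The functions were tested on simulated data. The smallest chi-square per degree of freedom between any pair of libraries was 18.8, so that no library was a copy of another, and the spread between mice was a biological coefficient of variation of 37.4%.

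The members and lists were chosen with earlier results of these data known. Named genes are the members, *Glis2*, the 4 genes of each list with the smallest unadjusted p, genes called by a tool, gene starts within 100 kb of *Rflnb* and the 5 genes most like *Rflnb* or *Flna*. *Actn4*, *Arpc2*, Gm23935 and the marker genes were named after their values were seen. A result that this rule selects is withheld and not reported here.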

Additional observations from a re-analysis of the deposited data

How the results depend on the processing

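*Rflnb* was higher in *Glis2*-/- cells in 15 of 15 alternatives. All of them reuse the libraries whose contrast selected the gene, so that this count is no independent support. Relative to basal markers, the *Rflnb* difference of 0.59 moved by more than the spread between mice, as did the −0.15 of *Flna*. *Rflna* was lower in 15 of 15, but −1.7e-06 after apeglm shrinkage, which also took *Flna* and *Flnc* to nearly 0. *Flna* was positive in 14 of 15 and *Flnc* in 13 of 15. With each mouse left out in turn, log2 fold changes lay between 0.76 and 1.10 for *Rflnb*, −0.86 and −0.21 for *Rflna*, 0.05 and 0.29 for *Flna*, and −0.01 and 0.32 for *Flnc*. The count of changed genes, 0 in edgeR against 1130 with an unadjusted p below 0.05, was 45 with DESeq2 and apeglm, 40 without a filter on low counts and 1 with log2(TPM + 0.1) in limma. Without a filter, 1 cross-linker (*Tagln*) and 1 TGF-β response gene (*Ltbp2*) passed, and with DESeq2 1 TGF-β response gene (*Ltbp2*). In edgeR with the filter, the counts stayed at 0 when any 1 mouse was left out, and the other tools were not run without a mouse. The cause was not tested. The labels do not say whether equal replicate numbers pair mice. Deviations from the genotype means correlated by −0.02, 0.17 and 0.02 between them, which cannot exclude a pairing. With a replicate block, 0 genes passed, and the log2 fold changes were 0.91 for *Rflnb*, −0.55 for *Rflna*, 0.17 for *Flna* and 0.23 for *Flnc*. *Rflna*, with 27 to 70 counts per library, had the largest standard error of the members, 0.50, and how much of it comes from depth was not tested.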
